A study of Mus musculus with 8 samples.

Results

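The comparison described here sets bone marrow progenitor cells with much CD16/32 on their surface against cells of the same plates with little of it. CD16/32 was read on the sorter for each cell, and within each of 4 plates the cells were ranked by that signal and cut into 3 parts. The upper part gave 451 CD16/32-high cells and the lower part 451 CD16/32-low cells, out of 1354 cells with both a sort record and a usable transcriptome on these plates, while 452 cells lay between them. The whole series holds 2727 usable cells on 8 plates. The cells were thus chosen by the sort signal of CD16/32, and its own difference between the arms is a description. The RNA of the same cells was not used to choose them.

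The cells were haematopoietic stem and progenitor cells (HSPCs) of the LSK class, which carry little or no lineage marker but Sca1 and cKit. They came from the marrow of mice aged 8 to 16 weeks that report the transcription factor gene Dach1. In these mice a biotin tag was placed ahead of the stop codon in exon 12 of Dach1 and was followed by an internal ribosome entry site and GFP. The selection cassette had been removed with Flpe, and the line goes back to 1 targeted C57BL/6 embryonic stem cell clone, so that both arms carry the same allele. Marrow cells were enriched for CD117 (cKit) on magnetic beads, stained and index sorted as single cells into 384-well plates, and RNA was counted with CEL-seq2, a 3'-end method with a molecular identifier for each transcript. The protocols name no mix of lineage antibodies, although CD11b is among the sort channels, and the labels do not say which mice or how many went onto a plate. P-values therefore rest on the variation among 4 plates, which may be technical.

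CD16/32 is a pair of low-affinity receptors for the constant part of immunoglobulin G. CD16 is encoded by Fcgr3, which signals through the adaptor encoded by Fcer1g, and CD32 is encoded by Fcgr2b, an inhibitory receptor. In mouse marrow the antibody is used mainly below the LSK stage, where a high signal marks granulocyte-monocyte progenitors and a lower one the progenitors upstream of them. Within the LSK class, cells with high CD135 (the FLT3 receptor) are the lymphoid-primed multipotent progenitors, and cells with little CD135 are divided by CD48 and CD150 into stem cells and myeloid- or megakaryocyte-biased multipotent progenitors.

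The CD16/32-high cells expressed more RNA of the neutrophil granule proteases and of myeloperoxidase, more RNA of H2A histones and fewer transcripts of the lymphoid programme than the CD16/32-low cells. Elane rose by 2.22 ± 0.19 on the log2 scale (SE), Ctsg by 1.42 ± 0.14 and Mpo by 1.11 ± 0.10, whereas Dntt fell by 1.47 ± 0.08 and Flt3 by 0.68 ± 0.08. On the sorter the same cells had more PIR-A, CD11b, Dach1-GFP and CD150 and less CD135 on 4 of 4 plates.

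Each arm of a plate held 112 or 113 cells and between 637155 and 969536 counts in all. The median cell had 6167 to 7881 counts in the CD16/32-high arms and 5193 to 7295 in the CD16/32-low arms, and on each plate the high arm was the deeper one. Mitochondrial transcripts took 3.86% to 4.31% of the counts in the high arms and 4.12% to 4.34% in the low arms. The fits normalised each arm to its total, so that a difference in total RNA per cell is not part of any value given below. Since counts were summed over the cells of an arm, the sums alone do not tell a smaller number of cells of one type from less RNA in each. Numbers of cells with granule, macrophage or B-lineage transcripts are given below.

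The CD16/32 signal itself was a continuum without a gap at either cut. Its median was 1117 in the high arm against 312 in the low arm on plate LCE407, 1012 against 287 on LCE408, 1060.2 against 285 on LCE409 and 1069 against 295 on LCE410, in the sorter's linear intensity units. On LCE407 the cells on either side of the upper cut had signals of 789 and 786, and those on either side of the lower cut 465 and 461. The highest cells reached 3442.5 to 3939, and the lowest lay between -108 and 13.2, below 0 on 3 plates. The arms are thus the ends of a ranking, cut where the signal showed no gap.

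Of 12 other sort channels, 9 were higher in the CD16/32-high cells on all 4 plates and 1, CD135, was lower on all 4. An exact two-sided permutation test over 4 plates cannot give a p below 0.13, so none of these differences could pass a threshold, and each of the 10 has p = 0.13 and an adjusted p of 0.15 over the 12 channels. PIR-A, a paired immunoglobulin-like receptor of myeloid and B cells, had a median signal of 702, 599, 660 and 679 in the high arms of LCE407, LCE408, LCE409 and LCE410, against 221, 225, 217 and 201 in the low arms. The arms did not overlap. Cell by cell, PIR-A had the highest Spearman correlation with CD16/32 of the 12 channels, 0.63 to 0.68 on the 4 plates over 336 to 340 cells each, whereas that of CD11b was 0.40 to 0.48. Both values come from the same pass of the same cells through the sorter, and how far spillover between detectors adds to them was not tested.

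CD11b, the integrin alpha chain of myeloid cells, averaged 1369 ± 109 in the high arms and 599.6 ± 34.5 in the low arms (SD over n = 4 plates). Dach1-GFP averaged 1021 ± 105 in the high arms and 337 ± 40.5 in the low arms. CD150, a stem cell and megakaryocyte-lineage marker, averaged 1370.0 ± 95.8 and 934 ± 119. CD135 went the other way, with a median signal of 4246, 3901, 4870.4 and 3335 in the high arms and 8393, 10812, 8526 and 9660.0 in the low arms of the same plates. In these 4 channels no high arm reached into the range of the low arms.

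Size and granularity moved with CD16/32 as well. Forward scatter averaged 141000 ± 3742 in the high arms and 129875 ± 1750.0 in the low arms, and side scatter 86080 ± 1675 against 70712 ± 2935. cKit averaged 5857 ± 682 against 4570 ± 290.0, CD48 5141 ± 737 against 4312 ± 166, and the dead-cell dye propidium iodide 942 ± 64.6 against 741 ± 85.8, each higher in the high arm of all 4 plates. The arms overlapped across plates for CD48, but not for cKit, propidium iodide or either scatter channel. IL7R, the interleukin 7 receptor, averaged 298 ± 13.9 in the high arms and 274 ± 37.7 in the low arms and was higher on 3 plates (exact permutation p = 0.25). Sca1 was higher on 2 plates of 4 (3759 ± 304 against 3611 ± 247, exact permutation p = 0.625). The arms therefore differ in several measured properties at once, and which of them goes with each RNA difference cannot be told apart. The cut was repeated below after linear regression of CD16/32 on scatter, on PIR-A or on all other channels. These cuts compare partly other cells. Of the 451 high cells, 330 stayed in the high arm after the correction for PIR-A and 276 after that for all other channels. Whether the corrected channels were equal between the new arms was not tested.

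**Figure D1:**
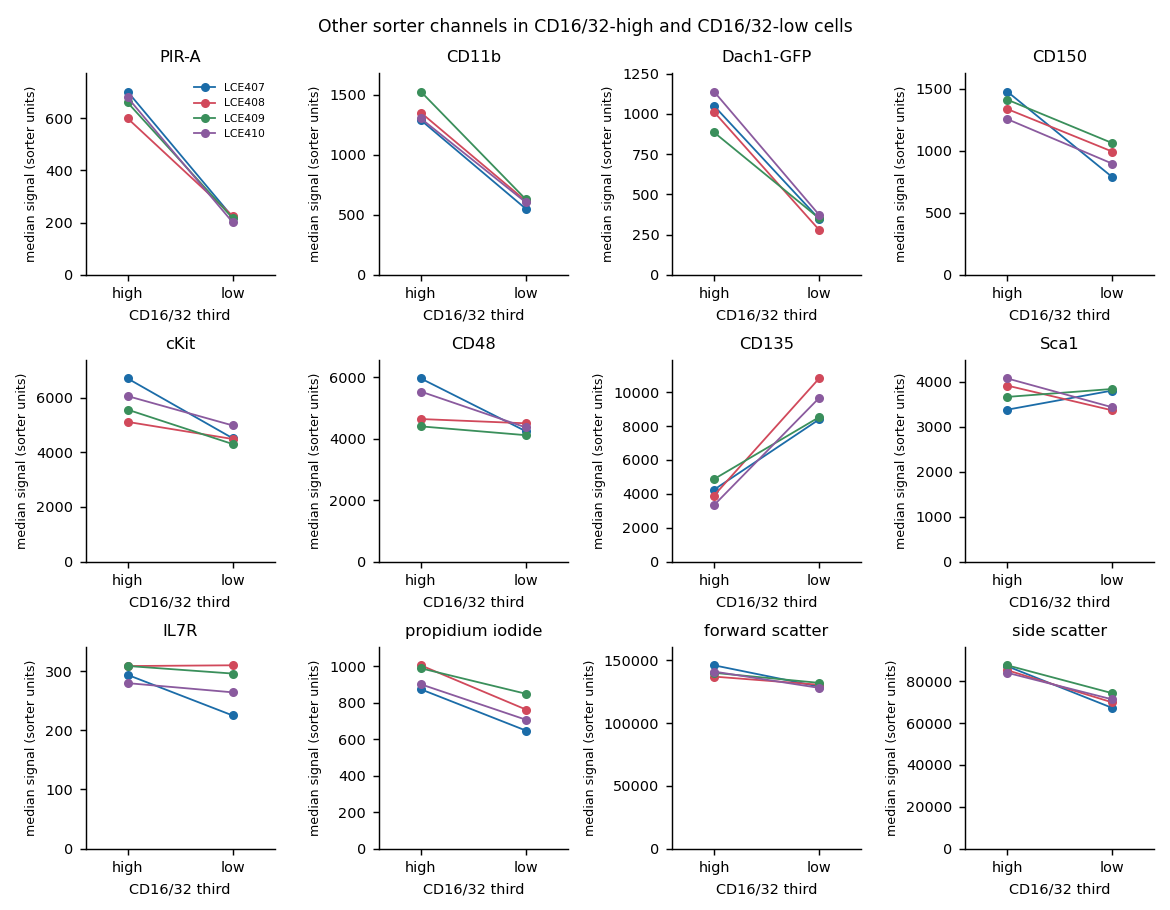
Median signal of 12 sort channels in the CD16/32-high and the CD16/32-low cells, in the sorter's linear intensity units, with 1 line for each of the 4 plates. PIR-A, CD11b, Dach1-GFP, CD150, cKit, propidium iodide and both scatter channels are higher in the high arm on all 4 plates without overlap. CD48 is higher on all 4 with overlap across plates, CD135 is lower on all 4, and the Sca1 lines cross.

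When each plate's median was used to split CD135, CD48 and CD150, the 4 patterns at or below the CD135 median were compared, and the largest share of the high arm among them was that with much of both CD48 and CD150, the surface pattern called MPP2. These cells made up 31.9%, 30.4%, 23.9% and 31.9% of the high arms and 5.31%, 3.57%, 8.85% and 0.885% of the low arms of LCE407, LCE408, LCE409 and LCE410. The middle arms lay between, at 9.73% to 15.9%. Cells above the CD135 median were 37.5% ± 2.32 of the high arms and 67.9% ± 5.70 of the low arms (SD, n = 4). Cells above the Dach1-GFP median were 61.9% ± 2.98 of the high arms, 57.8% ± 3.34 of the middle arms and 30.1% ± 5.55 of the low arms. The exact permutation p was 0.13, the smallest possible, for each of these high-against-low differences, and 0.188 after adjustment over 6 gates. The CD48-low, CD150-high pattern of stem cells was 13.7% ± 1.80 of the high arms and 10.6% ± 2.38 of the low arms, higher on 3 plates (exact permutation p = 0.25).

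Over the whole transcriptome, 104 of 8808 tested genes passed at an adjusted p of 0.05 (edgeR quasi-likelihood test with Benjamini-Hochberg adjustment), which is 1.18% of them. Of these, 53 were higher in the CD16/32-high cells (0.602% of the genes tested) and 51 lower (0.579%), and 92 had the same sign on all 4 plates. An unadjusted p under 0.05 was found for 841 genes. Levels are given in CPM, counts scaled to a common library total, and the high and low arms of the 4 plates did not overlap in CPM for 145 genes with higher (1.65%) and 150 with lower values (1.7%). DESeq2 called 23 of the 104 and no other gene. Its 5 falls were Dntt, Flt3, Satb1, Il12a and Ccr9, and its 18 rises were Mpo, Elane, Ctsg, Prtn3, Calr, Cd74, H2afx, Hmgb2, 9 H2A histone rows and the predicted gene Gm11336. An edgeR fit without the plate as a block called 24, and 67 passed without LCE407 and 66 without LCE410.

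Transcripts of the receptors that the antibody binds were scarce. Fcgr2b had 16.1, 12.4, 10.3 and 10.04 CPM in the high arms of LCE407, LCE408, LCE409 and LCE410, against 11.2, 2.85, 2.24 and 4.71 CPM in the low arms. It was higher on each plate, although the arms overlapped across plates, and 41 counts stood against 15 in all. Fcgr3 had 5.77, 5.53, 2.06 and 7.53 CPM in the high arms and 2.80, 4.28, 0 and 0 CPM in the low arms, which rests on 17 counts against 5. It too was higher on each plate. Both genes were below the count filter of the edgeR test, and the exact two-sided permutation test over plates gave p = 0.13 for each, with a mean difference of 6.98 CPM for Fcgr2b and 3.45 CPM for Fcgr3. In an edgeR fit without that filter neither passed. The log2 difference there was 1.24 ± 0.42 for Fcgr2b (edgeR, adjusted p = 0.20) and 1.51 ± 0.80 for Fcgr3 (adjusted p = 0.84). At this depth the direction of Fcgr3 is not firm, because the mean difference turned to -0.786 CPM when every cell was thinned to 3000 counts.

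Among the other sorted proteins, Flt3 and Il7r fell and no gene rose. Flt3 had 186, 212, 199 and 189.5 CPM in the high arms and 282, 342, 304 and 333 CPM in the low arms, so that the arms did not overlap. The fall of 0.68 ± 0.08 (log2, SE; edgeR, adjusted p = 1.5e-09) had the direction of the CD135 signal. Il7r had 2.31, 8.29, 4.13 and 8.79 CPM in the high arms and 21.02, 15.7, 13.5 and 17.3 CPM in the low arms, a log2 difference of -1.54 ± 0.39 (edgeR, adjusted p = 0.02), although the IL7R signal on the sorter was not lower in the high arms. It did not pass without LCE409 (edgeR, adjusted p = 0.17) or without LCE407 (log2 difference -1.15, adjusted p = 0.42). Dach1 was 0.64 ± 0.31 higher on the log2 scale and higher on 3 plates, Kit 0.17 ± 0.09 and Cd48 0.20 ± 0.12 higher, and Itgam, which encodes CD11b, 0.21 ± 0.26 lower (log2 difference -0.21). None of these 4 passed (edgeR, lowest adjusted p = 0.51). Slamf1, which encodes CD150, had 12 counts against 4 and Pira2 13 against 11, too few for the test. Of the 5 tested Fc receptor and signalling genes, among them Syk, Lyn and Inpp5d, 0 passed. The median log2 difference of these 5 genes was 0.01, and the nearest was Fcer1g with 34.6 ± 12.9 CPM in the high arms and 21.4 ± 8.43 CPM in the low arms (edgeR, adjusted p = 0.21).

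Granule genes led the rises. They encode the enzymes that promyelocytes pack into azurophil granules: Mpo is myeloperoxidase, and Elane, Ctsg and Prtn3 are the serine proteases neutrophil elastase, cathepsin G and proteinase 3. The promoters of these 4 genes, with that of Dntt, the gene with the smallest adjusted p among those that fell, are shown because the granule genes moved together. Each is given as the 250 bases that end at the annotated start, 5' to 3' on the gene's strand, from RefSeq on GRCm38.p6. Elane lies at chr10:79886062-79886311 on the plus strand, Prtn3 at chr10:79879417-79879666 on the plus strand, Mpo at chr11:87793534-87793783 on the plus strand, Ctsg at chr14:56102575-56102824 on the minus strand and Dntt at chr19:41029025-41029274 on the plus strand. Capitals mark matches on either strand to GAGGAA, the core bound by PU.1, AACGG, the core bound by MYB, or TGTGGT, the core bound by RUNX factors (ACCACA on the other strand). Another motif searched, TTNNGCAA, a core form of the C/EBP site, had no match in the 5 windows.
Elane: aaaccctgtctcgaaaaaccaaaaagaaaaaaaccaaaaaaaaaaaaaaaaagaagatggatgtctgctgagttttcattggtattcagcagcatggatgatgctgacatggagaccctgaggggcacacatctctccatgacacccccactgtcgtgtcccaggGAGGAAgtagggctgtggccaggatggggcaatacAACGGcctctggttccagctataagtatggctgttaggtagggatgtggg
Ctsg: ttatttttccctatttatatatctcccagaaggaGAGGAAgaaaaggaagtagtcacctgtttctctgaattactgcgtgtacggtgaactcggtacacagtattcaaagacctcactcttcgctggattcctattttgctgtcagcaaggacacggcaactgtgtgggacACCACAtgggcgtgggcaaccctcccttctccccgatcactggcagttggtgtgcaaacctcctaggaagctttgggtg
Mpo: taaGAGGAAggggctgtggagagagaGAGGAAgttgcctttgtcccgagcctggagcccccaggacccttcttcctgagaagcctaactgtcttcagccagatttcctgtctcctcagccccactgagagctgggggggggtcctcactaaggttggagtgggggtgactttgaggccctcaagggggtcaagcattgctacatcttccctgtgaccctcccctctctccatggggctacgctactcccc
Prtn3: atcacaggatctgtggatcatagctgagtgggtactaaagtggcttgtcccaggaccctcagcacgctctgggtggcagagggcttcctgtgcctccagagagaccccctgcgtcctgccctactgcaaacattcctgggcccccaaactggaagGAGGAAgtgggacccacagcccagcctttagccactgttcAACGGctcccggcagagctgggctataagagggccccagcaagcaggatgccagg
Dntt: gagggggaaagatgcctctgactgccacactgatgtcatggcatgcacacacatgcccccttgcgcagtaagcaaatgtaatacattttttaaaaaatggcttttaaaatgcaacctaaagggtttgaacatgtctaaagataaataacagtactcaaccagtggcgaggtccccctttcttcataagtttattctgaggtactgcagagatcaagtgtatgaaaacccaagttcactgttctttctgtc

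GAGGAA was present in all 4 granule promoters, 85 bases before the start in Elane, 95 in Prtn3, 216 in Ctsg and at 247 and 224 bases in Mpo. Of 32851 promoter windows of the same length in the RefSeq table, 23.3% hold it. AACGG was present 50 bases before the start in Elane and 55 in Prtn3, against 14.5% of all windows, and TGTGGT in Ctsg alone, 79 bases before the start, against 14.05%. TTNNGCAA was found in 9.56% of all windows. The Dntt window held none of the 4. Prtn3 and Elane are neighbours on chromosome 10 in the same orientation. These are matches of letters, and binding was not measured here.

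Mpo had 256, 420.2, 193 and 432 CPM in the high arms of LCE407, LCE408, LCE409 and LCE410, against 161, 125, 112 and 185 CPM in the low arms. All high arms lay above all low arms, and the log2 difference was 1.11 ± 0.10 (SE; edgeR, adjusted p = 6.4e-15). Ctsg had 149, 148, 78.4 and 169 CPM in the high arms and 50.4, 54.2, 38.2 and 56.5 CPM in the low arms, also without overlap, a log2 difference of 1.42 ± 0.14 (edgeR, adjusted p = 1.8e-13). LCE409 was the lowest plate for both genes, in both arms.

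Elane had 71.5, 246 and 136 CPM in the high arms of LCE407, LCE408 and LCE410 and 14.01, 57.0 and 25.1 CPM in the low arms. Each high arm lay above every low arm of these 3 plates. The deposited table of LCE409 has no entry for Elane and the gene was entered as 0 there. The log2 difference of 2.22 ± 0.19 (edgeR, adjusted p = 4.6e-16) is therefore carried by 3 plates, and was 2.22 (adjusted p = 3.8e-11) when LCE409 was left out. One cell held 20.8% of all Elane counts of the 2 arms. Prtn3 had 288, 444, 176 and 367 CPM in the high arms and 203, 248, 137 and 193 CPM in the low arms. It was higher on each plate, with overlap across plates, by 0.67 ± 0.09 on the log2 scale (edgeR, adjusted p = 1.2e-08). With every cell thinned to the same number of counts Prtn3 did not pass (log2 difference 0.43, edgeR, adjusted p = 0.081), while Mpo (0.80), Ctsg (0.94) and Elane (1.45) passed with smaller differences.

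The fifth granule gene to rise was Nkg7, a protein of cytotoxic and myeloid granules, with 94.1 ± 25.0 CPM in the high arms and 60.4 ± 18.4 CPM in the low arms (log2 difference 0.62 ± 0.15, edgeR, adjusted p = 0.0075). It did not pass without LCE408 (0.48, edgeR adjusted p = 0.2) or under DESeq2. In all, 5 of 15 tested granule genes rose and 0 fell, against 0.602% and 0.579% of all genes tested. The list's median log2 difference was 0.23, beside a median of -0.003 over all genes tested. Of the 15, 14 had a positive difference, although 5 passed. The 1 negative member was Plac8, a placenta-enriched gene of early myeloid and lymphoid cells. Plac8 had 457 ± 79.4 CPM in the high arms and 517 ± 82.2 CPM in the low arms (edgeR, adjusted p = 0.25). Ms4a3, a marker of granulocyte-monocyte progenitors, was below the count filter, with 46 counts in the high arms against 7 in the low arms. In a fit without that filter it rose by 2.43 ± 0.49 (log2, edgeR adjusted p = 0.00023), and Ccr2, the monocyte chemokine receptor, with 48 counts against 9, by 2.16 (edgeR adjusted p = 0.00048). Ccr2 was the only one of 14 monocyte genes to pass in that fit, where 68 genes rose in all, and 8 of the 14 were positive. Csf1r (16 counts against 26) and S100a4 (19 against 26) were lower in the high arms. With the filter, 0 of 3 tested monocyte genes passed, with a median of -0.03.

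Some cells in every arm had counts of several granule genes. Cells with counts of 3 or more of Mpo, Elane, Prtn3, Ctsg and Ms4a3 numbered 28, 30, 21 and 43 in the high arms of LCE407, LCE408, LCE409 and LCE410, and 17, 26, 17 and 19 in the low arms. The sum was 122 of 451 high cells, 75 of 452 middle cells and 79 of 451 low cells. These cells were not thinned to equal depth, and the high arm was deeper than the low arm on each plate. On LCE409, where Elane has no entry, the rule rested on the other genes. How far depth adds to the counts was not tested. A fit without the granule-rich cells cannot be read for the granule genes, because the cells were chosen by them. Granule genes were among the calls when CD16/32 was first corrected for all 12 other channels, the most severe of the alternatives and likewise chosen after the data were seen. Of the 9 genes that then passed, Elane (2.07), Ctsg (0.998) and Mpo (0.66) were 3 of the 6 that rose.

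Transcription factor genes of the myeloid lineage were set beside the granule genes. Of 12 tested genes of that list, 0 passed in either direction, against 1.18% of all genes tested, and their median log2 difference was -0.06. A count of 0 among 12 is near that share and does not show that the factors were unchanged. Below the count filter, Cebpd had 33 counts in the high arms and 16 in the low arms and Cebpe 5 and 1. Klf4 had 3 and 5 counts and Egr1 12 and 15. Spi1, which encodes PU.1, had 94.3 ± 18.4 CPM in the high arms and 81.0 ± 7.37 CPM in the low arms. Irf8, a factor of monocytes and dendritic cells, had 57.5 ± 12.2 and 69.2 ± 24.1 CPM, and Runx1 102 ± 14.5 and 129.5 ± 13.8 CPM (edgeR, lowest adjusted p of the 3 = 0.15). Of 11 tested myeloid cytokine and surface receptors, 1 fell and 0 rose, with a median of -0.24. That one was Cd33, an inhibitory sialic acid receptor of myeloid cells, with 17.3, 11.1, 16.5 and 10.04 CPM in the high arms and 37.8, 31.4, 23.6 and 43.9 CPM in the low arms (log2 difference -1.26 ± 0.27, edgeR, adjusted p = 0.0017). It did not pass without LCE410 (adjusted p = 0.15). Csf3r, the receptor for granulocyte colony-stimulating factor, lay at 76.8 ± 3.37 CPM in the high arms and 61.1 ± 8.80 CPM in the low arms without overlap, but did not pass (log2 difference 0.34 ± 0.15, edgeR, adjusted p = 0.42).

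Calr, which encodes the endoplasmic reticulum chaperone calreticulin, rose together with the granule genes. It had 379, 429, 363 and 433 CPM in the high arms and 289, 252, 309 and 246 CPM in the low arms, without overlap (log2 difference 0.53 ± 0.08, edgeR, adjusted p = 4.5e-07). It was the only one of 17 tested protein-folding genes of that compartment to pass. The median of those 17 was 0.10. Calr did not pass with cells thinned to equal counts (log2 difference 0.38, edgeR, adjusted p = 0.083) or without the cells rich in granule transcripts (0.20, adjusted p = 0.5).

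**Figure D2:**
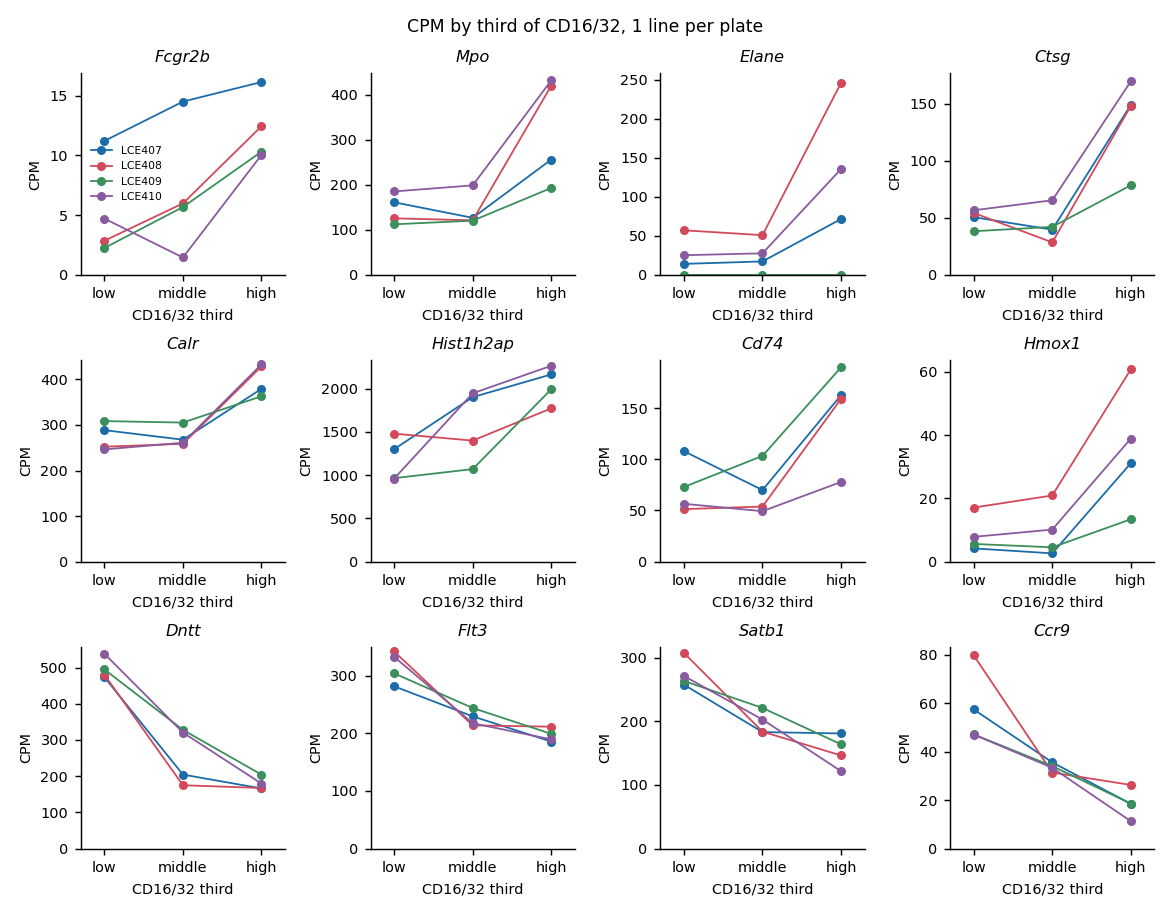
CPM of 12 genes in the low, middle and high part of CD16/32, with 1 line for each of the 4 plates and linear axes that start at 0. Mpo, Elane, Ctsg, Calr, Cd74 and Hmox1 stay near the low level in the middle part and are higher in the high part, whereas Dntt, Flt3, Satb1 and Ccr9 are already lower in the middle part; Elane has no entry on LCE409 and is drawn at 0 there.

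Genes of lymphoid priming were the largest group among the falls. Of 19 tested genes of that list, 9 fell and 0 rose, against 0.579% and 0.602% of all genes tested, and the list's median log2 difference was -0.68. Its summed level was 1652 to 2239 CPM in the 4 high arms and 2640 to 2932 CPM in the 4 low arms, so that no arm overlapped. Dntt encodes terminal deoxynucleotidyl transferase, which adds untemplated bases at the joints of immunoglobulin and T cell receptor genes and is among the first lymphoid transcripts to appear in progenitors. Dntt had 166, 167, 204 and 179 CPM in the high arms and 474, 480.3, 495 and 538 CPM in the low arms, a log2 difference of -1.47 ± 0.08 (edgeR, adjusted p = 3.8e-27), the smallest adjusted p of all genes tested.

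Satb1, a chromatin organiser needed for T cell development, had 181, 147, 164 and 122 CPM in the high arms and 258, 308, 264 and 272 CPM in the low arms (log2 difference -0.83 ± 0.09, edgeR, adjusted p = 1.3e-10). Il12a, the p35 subunit of interleukin 12, had 70.3, 101, 76.3 and 57.7 CPM in the high arms and 165, 207, 144 and 162 CPM in the low arms (log2 difference -1.14 ± 0.12, edgeR, adjusted p = 2.5e-12). Neither gene's arms overlapped. Ccr9, the chemokine receptor that guides progenitors to the thymus, had 18.5, 26.3, 18.6 and 11.3 CPM in the high arms and 57.4, 79.8, 47.1 and 47.1 CPM in the low arms (log2 difference -1.62 ± 0.21, edgeR, adjusted p = 2.0e-08), again without overlap.

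The other members that fell, besides Flt3 and Il7r, were Notch1 (-0.77 ± 0.14), Ikzf1 (-0.47 ± 0.11) and Arpp21 (-1.56 ± 0.26, log2 differences with SE). Notch1 is the receptor that commits progenitors to the T lineage, Ikzf1 encodes Ikaros, a zinc-finger factor that lymphoid development needs, and Arpp21 is expressed in immature lymphocytes. Of these 3, Ikzf1 did not pass without LCE409 (edgeR, adjusted p = 0.16) or LCE410 (adjusted p = 0.063). Ighm, the heavy chain of immunoglobulin M, did not pass (359 ± 274 CPM in the high arms, 398 ± 157 CPM in the low arms; edgeR, adjusted p = 0.23), and differed in sign between the CD135-high and CD135-low cells described below. Tcf4, which encodes E2-2, a factor of plasmacytoid dendritic cells, fell by 0.42 ± 0.09 on the log2 scale (edgeR, adjusted p = 0.0017), and did not pass without LCE407 (adjusted p = 0.095). Outside the lists, Ncf1, a subunit of the phagocyte oxidase, fell by 0.95 ± 0.17 and Wfdc17, a small secreted protease inhibitor, by 1.01 ± 0.18. Both had higher levels in every low arm than in any high arm. T and NK cell genes had too few counts to pass the filter. In the fit without it Trbc1, a constant region of the T cell receptor beta chain, fell by 2.48 ± 0.65 on the log2 scale (5 counts in the high arms, 26 in the low arms, lower on all 4 plates; edgeR, adjusted p = 0.026), and the other 5 genes that this fit tested did not pass.

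The lymphoid falls differed with the channels that CD16/32 was corrected for. When CD16/32 was corrected for all 12 other channels, CD135 among them, Dntt had a log2 difference of 0.34 (edgeR, adjusted p = 0.02), a turn of direction, Flt3 of 0.12 and Satb1 of -0.04. Of 17 tested members of the list 2 rose and 0 fell, where 6 genes rose and 3 fell in all. When CD16/32 was corrected for PIR-A alone, Dntt fell by 0.57, Satb1 by 0.56, Flt3 by 0.61 and Ccr9 by 1.24 (edgeR, highest adjusted p = 2.9e-05). In that cut 5 of 18 tested members fell, of 28 genes that fell in all. Without any correction 51 genes fell in all, 0.579% of those tested.

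H2A histone rows formed the second large group of rises. They were grouped after the values were seen. Histone mRNA is made in S phase and mostly lacks a poly(A) tail, so that a poly(A) method reads only part of it, and the copies of the cluster are nearly identical, so that reads may be split between them in ways that cannot be resolved here. Of 18 such rows, 15 were tested and 11 rose, against 0.602% of all genes tested. The median log2 difference over the 15 was 0.92. Hist1h2ap, the most abundant, had 2165, 1772, 1993 and 2264 CPM in the high arms and 1300.2, 1479.5, 965 and 961 CPM in the low arms, without overlap (log2 difference 0.81 ± 0.06, edgeR, adjusted p = 2.6e-19). Hist1h2aj had 445 ± 87.9 CPM in the high arms and 224 ± 36.9 CPM in the low arms.

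Other genes of proliferation moved the same way. H2afx, the histone variant that is phosphorylated at DNA breaks, had 233, 158, 185 and 222 CPM in the high arms and 116, 114, 125 and 108 CPM in the low arms (log2 difference 0.77 ± 0.11, edgeR, adjusted p = 1.6e-07). Hmgb2, a chromatin protein of cycling cells, had 342, 347, 328 and 305 CPM in the high arms and 192, 267, 230.0 and 198 CPM in the low arms (log2 difference 0.58 ± 0.08, edgeR, adjusted p = 1.8e-07). Neither overlapped. Hmgb2 and Mki67, the proliferation antigen Ki-67 (log2 difference 0.40 ± 0.11), were the 2 of 19 tested G2 and M phase genes that rose. Mki67 passed only narrowly (edgeR, adjusted p = 0.048) and did not pass without LCE407 (adjusted p = 0.5) or LCE410 (adjusted p = 0.45). The 19 had a median of 0.49, and 18 of them were positive. By plate the median was uneven, at 0.83 on LCE407, 0.045 on LCE408, 0.10 on LCE409 and 0.67 on LCE410. Of 18 tested S phase genes, 0 passed, with a median of 0.12. Tk1, thymidine kinase, rose by 0.85 ± 0.18 (edgeR, adjusted p = 0.0013), but did not pass without LCE409 (adjusted p = 0.078) or LCE410 (adjusted p = 0.055).

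The rise of this group was not seen after a correction for scatter. Forward and side scatter were corrected together, so that size and granularity cannot be told apart in this cut. When CD16/32 was corrected for forward and side scatter before the cells were ranked, 0 of 15 H2A histone rows passed and their median was -0.06. Under the same correction Hist1h2ap had a log2 difference of -0.06, H2afx of -0.05 and Hmgb2 of -0.02 (edgeR, lowest adjusted p = 0.87), and the G2 and M phase genes a median of -0.12 with 0 called. The leading granule and lymphoid genes still passed in that cut, with Elane at 1.94, Ctsg at 1.11, Mpo at 0.80, Dntt at -1.30 and Flt3 at -0.61 (edgeR, highest adjusted p = 2.8e-08). Thinning each cell to 3000 counts left 10 of 11 tested H2A rows called, of 29 genes that rose in all, with a median of 0.92.

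**Figure D3:**
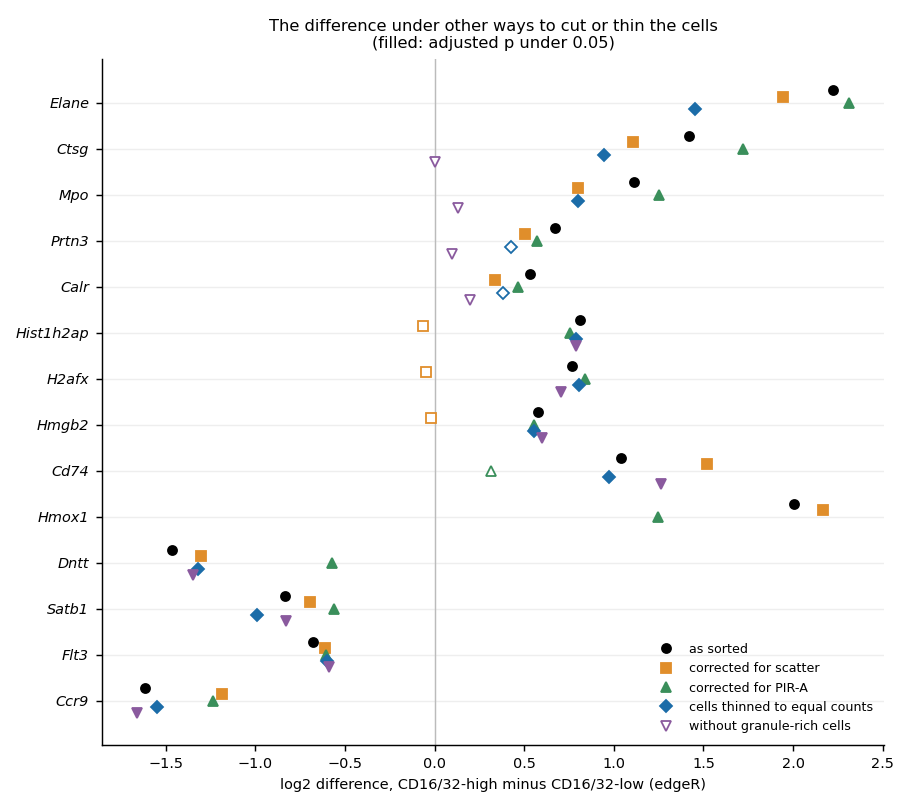
Log2 difference of 14 genes between CD16/32-high and CD16/32-low cells when the cells were ranked as sorted, after correction of CD16/32 for scatter or for PIR-A, with cells thinned to equal counts and without the cells rich in granule transcripts; filled symbols passed an adjusted p of 0.05. Hist1h2ap, H2afx and Hmgb2 lie at 0 only after the correction for scatter, Cd74 loses its call, of the cuts shown, only after the correction for PIR-A, and Mpo and Ctsg lie near 0 without the granule-rich cells, which were chosen by these same genes.

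Transcripts of other lineages differed too, and some cells had counts of several genes of the same other lineage. Cells with counts of 3 or more macrophage genes numbered 11 in the high arms, 1 in the middle arms and 0 in the low arms, and cells with 3 or more B-lineage genes 39, 22 and 19. In the high arms of LCE407, LCE408, LCE409 and LCE410, 0, 3, 6 and 2 cells met the macrophage rule. These numbers, too, are of cells not thinned to equal depth, and the kind of these cells was not tested further. No cell met that rule for neutrophil genes, and 6 of the 14 neutrophil genes, Ltf, Lcn2, Retnlg, Mmp8, Fcnb and Ly6g, had no count in either arm. Hmox1, the haem-degrading enzyme of macrophages, had 31.1, 60.8, 13.4 and 38.9 CPM in the high arms and 4.20, 17.1, 5.61 and 7.85 CPM in the low arms (log2 difference 2.003 ± 0.30, edgeR, adjusted p = 9.1e-07). It was higher on each plate, with overlap across plates, and was the only macrophage gene with enough counts for the test. Hmox1 still passed without the B-lineage and macrophage cells (log2 difference 1.73) but was not called by DESeq2. The summed level of the 13 macrophage genes was 72.7 to 173 CPM in the high arms and 21.02 to 67.0 CPM in the low arms, with Marco at 0 in both. In the fit without a count filter, C1qc, a complement component of macrophages, rose by 1.51 (49 counts against 15, edgeR adjusted p = 0.027) and Vcam1 by 2.09 (39 counts against 8, adjusted p = 0.0057).

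Of 10 tested dendritic cell genes, 3 rose, all of class II antigen presentation, against 0.602% of all genes tested. Another 2, Flt3 and Tcf4, fell, against 0.579%, and the list median was 0.21. H2-Ab1, another class II gene, did not pass (log2 difference 0.35, edgeR, adjusted p = 0.25), but passed without LCE410 (0.55), with cells thinned (0.62) and after the correction for scatter (0.53; edgeR, highest adjusted p of the 3 = 0.046). Cd74, the invariant chain, had 163, 159, 189.8 and 77.8 CPM in the high arms and 108, 51.3, 72.9 and 56.5 CPM in the low arms, higher on each plate (log2 difference 1.04 ± 0.13, edgeR, adjusted p = 6.5e-09). H2-Eb1 rose by 1.07 ± 0.19 and H2-Aa by 0.67 ± 0.14, each on 3 plates of 4, and H2-Aa did not pass without LCE409 (edgeR, adjusted p = 0.23). Without the B-lineage and macrophage cells, none of the 3 passed (log2 differences 0.42 for Cd74, 0.63 for H2-Eb1 and 0.27 for H2-Aa; edgeR, lowest adjusted p = 0.28). After correction of CD16/32 for PIR-A the differences were 0.32, 0.09 and 0.18, and none passed. The reads of these related class II chains may be shared between them.

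Cd79a, a chain of the B cell receptor complex, rose by 0.97 ± 0.26 (32.3 ± 8.29 CPM in the high arms, 16.2 ± 2.24 CPM in the low arms; edgeR, adjusted p = 0.03) and was the only one of 9 tested B-lineage genes to pass. Its call was lost without LCE407, LCE408 or LCE410 in turn (edgeR, lowest adjusted p = 0.14). After correction of CD16/32 for PIR-A, 8 of 9 tested B-lineage genes rose, of 55 genes that rose in all. Without any correction 53 genes rose in all, 0.602% of those tested. Cd79a then rose by 2.46 (edgeR, adjusted p = 3.8e-09). After correction for scatter 5 of 10 B-lineage genes rose, of 25 genes that rose in all, and after correction for all other channels 1 of 12, of 6 in all. Ebf1, the factor that specifies B cells, had 37.9 ± 8.49 CPM in the high arms and 37.1 ± 11.1 CPM in the low arms. In the fit without a count filter Ms4a1, which encodes CD20, rose by 2.48 (40 counts against 6; edgeR, adjusted p = 0.00079).

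Cpa3, the mast cell carboxypeptidase that early basophil and mast cell progenitors also express, had 42.2 ± 15.8 CPM in the high arms and 22.5 ± 6.79 CPM in the low arms. Its log2 difference was 0.89 ± 0.22 (edgeR, adjusted p = 0.018), and it did not pass without LCE407, LCE408 or LCE410 in turn (lowest adjusted p = 0.052). Pf4, platelet factor 4, had 57.7, 9.68, 63.9 and 15.1 CPM in the high arms and 18.2, 4.28, 12.3 and 6.28 CPM in the low arms. It rose by 1.85 ± 0.28 (edgeR, adjusted p = 1.1e-06), but 1 cell held 17.9% of its counts, and after correction for PIR-A its log2 difference was 0.46 (adjusted p = 0.74). The other 6 tested megakaryocyte genes did not pass, the nearest being Itga2b, which encodes CD41, at 0.79 ± 0.25 (edgeR, adjusted p = 0.13).

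Of 13 tested stem cell genes only Apoe, apolipoprotein E, passed. It had 67.3 ± 21.7 CPM in the high arms and 37.8 ± 14.6 CPM in the low arms, a log2 difference of 0.84 ± 0.18 (edgeR, adjusted p = 0.0017), and missed the threshold without LCE409 (adjusted p = 0.056). The stem cell regulator Hlf had 325 ± 45.2 and 299.8 ± 24.3 CPM (edgeR, adjusted p = 0.68) and Meis1 133 ± 1.91 and 118 ± 3.83 CPM (adjusted p = 0.65). The summed level of the list was 1288 to 1393 CPM in the high arms, 1441 to 1692 in the middle arms and 1083 to 1281 in the low arms, highest in the middle.

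Of 7 tested erythroid genes, 4 fell, all of them globins, against 0.579% of all genes tested. The list's median was -0.86. The alpha globin Hba-a1 had 5.77, 29.0, 9.28 and 16.3 CPM in the high arms and 2.80, 208, 34.8 and 3.14 CPM in the low arms, and 1 cell held 52.0% of its counts. The log2 difference of -1.87 ± 0.29 (edgeR, adjusted p = 2.4e-06) was thus set by LCE408, and 2 of the 4 plates had the higher value in the high arm. Without LCE408, 0 of 6 tested erythroid genes passed, with a median of -0.26, and under DESeq2 0 of 7. Without a count filter, 7 of 15 erythroid genes fell, of 62 genes that fell in all, and 0 rose. The further 3 were Car1, an erythroid carbonic anhydrase, with 23 counts in the high arms and 96 in the low arms (log2 difference -2.14, edgeR, adjusted p = 1.4e-08), Ermap, an erythroid membrane protein, with 5 and 39 counts (adjusted p = 0.0001), and Klf1, the erythroid transcription factor, with 9 and 37 counts (adjusted p = 0.0079). LCE408 and LCE409 held 55 and 36 of the low-arm counts of Car1, 14 and 25 of Ermap and 16 and 19 of Klf1. Globin reads are shared between near-identical copies.

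Further genes outside these lists rose in the CD16/32-high cells. Muc13, a mucin of progenitor surfaces, had 91.4 ± 10.8 CPM in the high arms and 48.6 ± 11.5 CPM in the low arms (log2 difference 0.90 ± 0.15). Itga6, an integrin of megakaryocyte- and stem-biased progenitors, had 57.0 ± 5.44 and 33.8 ± 5.29 CPM (0.73 ± 0.19), and Lgals1, the lectin galectin 1, 63.5 ± 12.4 and 32.1 ± 13.2 CPM (0.97 ± 0.19; edgeR, highest adjusted p of the 3 = 0.024). Itga6 did not pass without LCE407, LCE408 or LCE410 in turn (lowest adjusted p = 0.12). H2afy, the macroH2A1 histone variant of quiet chromatin, was among the small falls, with 1649 ± 149 CPM in the high arms and 1986 ± 163 CPM in the low arms (log2 difference -0.27 ± 0.04, edgeR, adjusted p = 8.0e-08). Of 7 tested interferon-stimulated genes 0 passed, with a median of -0.25 and all 7 negative, and of 5 immediate early and heat shock genes 0 passed, with a median of -0.03. Of 95 ribosomal protein genes 0 passed (median -0.02), and of 17 mitochondrially encoded genes 1, the rRNA mt-Rnr2, fell by 0.12 (median -0.03), a call that was lost without LCE407 or LCE410.

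**Figure D4:**
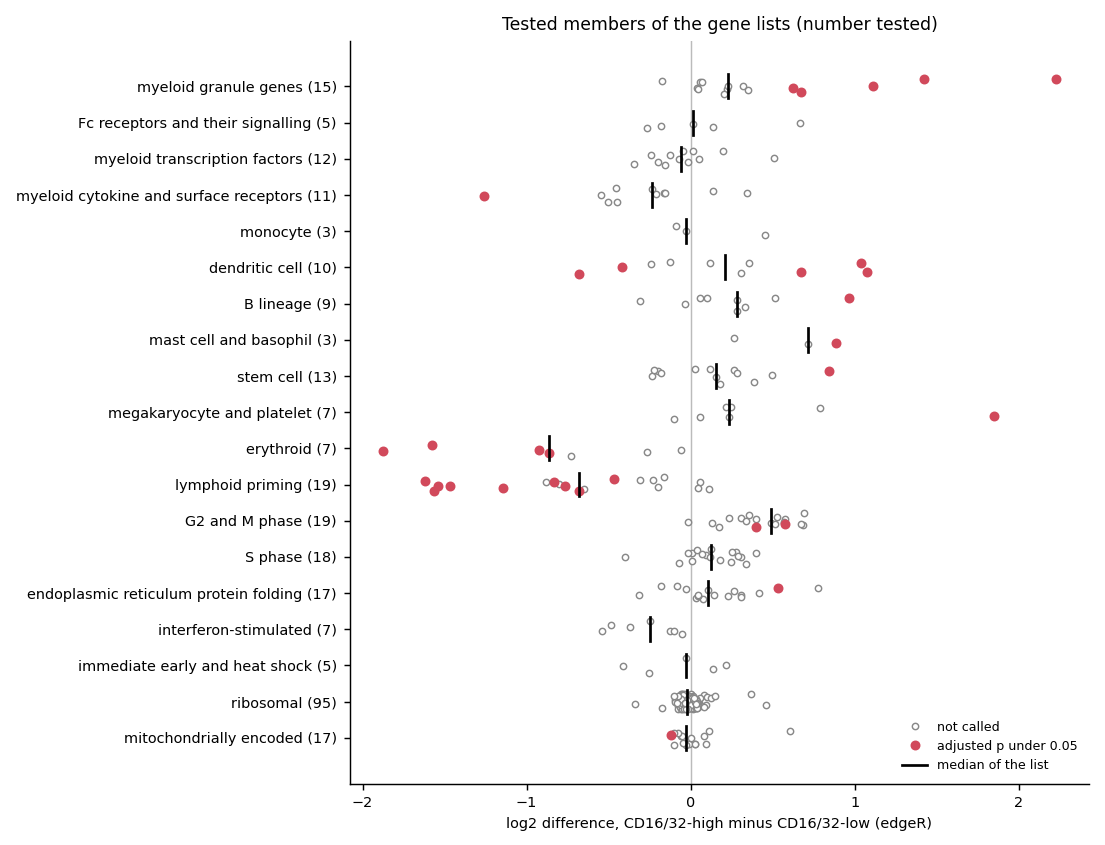
Log2 difference between CD16/32-high and CD16/32-low cells for each tested member of 19 gene lists, with the number tested in brackets; red points passed an adjusted p of 0.05 and black bars are the list medians. The 5 granule genes that passed lie to the right and the 9 lymphoid genes that passed to the left of 0, and the ribosomal genes are centred at 0.

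The middle cells were set against each end of the CD16/32 range. Middle against low and high against middle were taken from 1 fit and share the middle arm, so each is given with its own values. Middle against low, 25 of 9235 tested genes passed (0.271%), 9 higher (0.0975%) and 16 lower (0.173%), and high against middle 37 (0.401%), 29 higher (0.314%) and 8 lower (0.0866%). The first count was 47 without LCE409 and 16 without LCE410, and the second 18 without LCE409 and 21 without LCE408. Mpo differed by -0.05 ± 0.12 between middle and low and by 1.17 ± 0.11 between high and middle, Elane by -0.02 ± 0.25 and 2.24 ± 0.18, and Ctsg by -0.18 ± 0.19 and 1.61 ± 0.15 (log2, SE). Of 15 tested granule genes, 0 rose and 1 (Plac8) fell between middle and low, and 4 rose between high and middle, with list medians of -0.02 and 0.33. Calr differed by -0.01 ± 0.08 and then by 0.55 ± 0.08, and Cd74 by -0.04 ± 0.16 and then by 1.08 ± 0.14.

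Of 18 tested lymphoid genes, 6 fell between middle and low and 1, Dntt, between high and middle. The list's median was -0.47 between middle and low, with 1 member positive, and -0.18 between high and middle, with 4 positive. Dntt fell by 0.96 ± 0.08 and then by 0.51 ± 0.10, both past the threshold, while Flt3 fell by 0.47 ± 0.08 (edgeR, adjusted p = 0.00038) and then differed by -0.20 ± 0.09 (adjusted p = 0.52). Of 15 tested H2A histone rows, 7 rose between middle and low and 9 between high and middle, and Hist1h2ap rose by 0.39 ± 0.08 and by 0.41 ± 0.07. Hlf was highest in the middle cells, at 402 ± 49.5 CPM, with a rise of 0.42 ± 0.07 from low to middle (edgeR, adjusted p = 0.00038) and a difference of -0.29 ± 0.07 between high and middle (adjusted p = 0.024). Whether the 2 steps differ for a gene was not tested.

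Since CD16/32-high cells had little CD135, the comparison was repeated within the cells above and within those at or below each plate's CD135 median, with 56 cells in each arm and plate. The CD16/32 medians of the arms were not the same in the 2 groups. They were 893 to 1018 in the high arms and 203 to 244 in the low arms of the CD135-high cells, and 1089 to 1233 in the high arms and 368 to 445 in the low arms of the CD135-low cells. In CD135-high cells 33 of 5622 tested genes passed (0.587%), 18 higher (0.32%) and 15 lower (0.267%). In CD135-low cells 53 of 6076 passed (0.872%), 43 higher (0.708%) and 10 lower (0.165%). Without LCE410 the first count was 19, and without LCE408 the second was 34.

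In the CD135-high cells the lymphoid genes fell and no granule gene rose. Of 16 tested lymphoid genes, 8 fell, whereas of 13 tested granule genes 0 rose and 1, Plac8, fell. Dntt fell by 1.36 ± 0.09, Il12a by 0.99 ± 0.15, Ccr9 by 1.74 ± 0.26 and Satb1 by 0.58 ± 0.11 on the log2 scale (edgeR, highest adjusted p = 0.0023). Mpo differed by 0.39 ± 0.15 (adjusted p = 0.45) and Elane by 0.73 ± 0.36 (adjusted p = 0.7). In the CD135-low cells 5 of 13 tested granule genes rose, with Elane at 2.75 ± 0.26, Ctsg at 1.80 ± 0.23, Mpo at 1.19 ± 0.15 and Prtn3 at 0.67 ± 0.13 (edgeR, highest adjusted p = 0.0038). There 0 of 13 tested lymphoid genes fell and 1, Ighm, rose. H2A histone rows rose in both, 9 of 11 in the CD135-high and 10 of 11 in the CD135-low cells.

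The difference between the CD135-high and the CD135-low cells was tested as an interaction, CD135-high minus CD135-low, and 9 of 6909 genes passed (0.13%), 5 positive (0.0724%) and 4 negative (0.0579%). The count was 16 without LCE407, 3 without LCE408 and 4 without LCE410. None of the 14 granule genes tested was among them, with Mpo at -0.78 ± 0.26 (edgeR, adjusted p = 0.46) and Elane at -1.78 ± 0.63 (adjusted p = 0.51), so that the unequal counts of called granule genes do not show a difference between them. Dntt did differ, by -0.91 ± 0.20 (edgeR, adjusted p = 0.024). Hlf had opposite signs, with a rise of 0.54 ± 0.11 in CD135-high cells and a fall of 0.52 ± 0.11 in CD135-low cells (interaction 1.061 ± 0.15, edgeR, adjusted p = 4.5e-06). Ighm fell by 0.69 ± 0.10 in CD135-high cells and rose by 0.81 ± 0.13 in CD135-low cells (interaction -1.55 ± 0.22, edgeR, adjusted p = 8.0e-06). Car2, the carbonic anhydrase of early erythroid and megakaryocyte progenitors, differed by 0.34 ± 0.10 in CD135-high cells (adjusted p = 0.14) and fell by 0.54 ± 0.08 in CD135-low cells (interaction 0.88 ± 0.13, edgeR, adjusted p = 1.3e-05). Taken over all cells, Hlf and Car2 had log2 differences of 0.12 and -0.06 and did not pass.

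**Figure D5:**
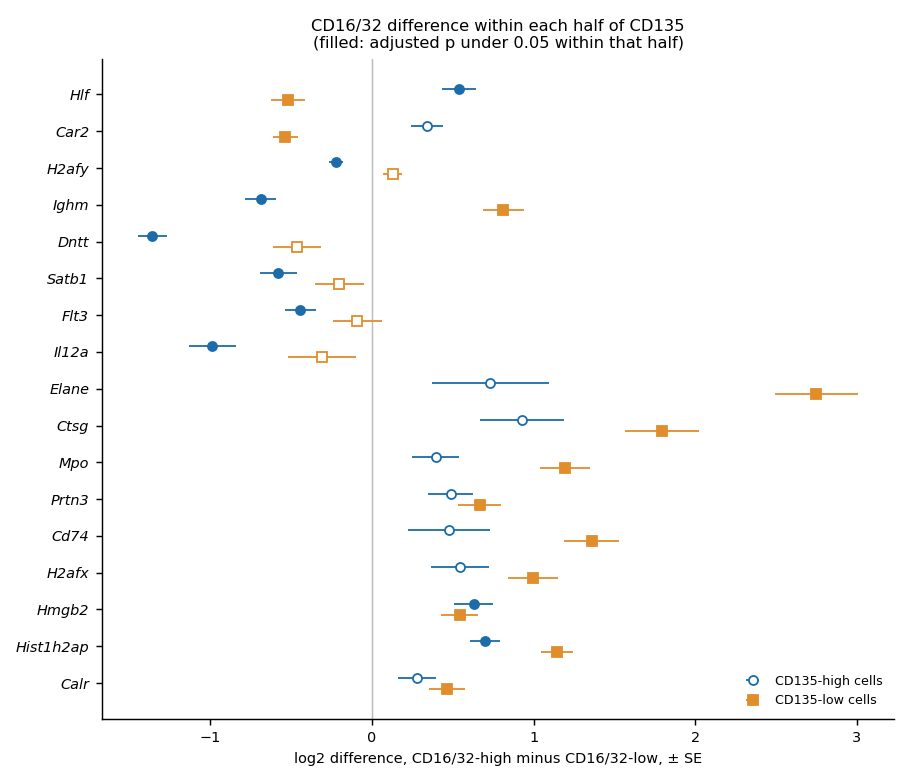
Log2 difference between CD16/32-high and CD16/32-low cells within the CD135-high cells (blue circles) and the CD135-low cells (orange squares) for 17 genes, with SE; filled symbols passed an adjusted p of 0.05 in that group. Hlf, Car2 and Ighm lie on opposite sides of 0 in the 2 groups, Dntt and Satb1 passed in the CD135-high cells, and Elane, Ctsg, Mpo and Cd74 passed in the CD135-low cells.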

How the data were processed

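Single haematopoietic progenitor cells on 4 plates (LCE407 to LCE410) were compared. The authors deposited 1 table of whole-number counts per gene and well for each plate, with 23215 gene IDs in all, and a table of fluorescence and scatter intensity for every sorted cell in linear sorter units, per the file headers. The labels give an 8-base cell barcode and a 6-base molecular identifier. Aligner, counting tool and use of strand: not given in the sources used here. GRCh38 is the build in the submitters' processing notes although the IDs are mouse Ensembl IDs, so no coordinates were taken from the files. Symbols came from a GENCODE table of mouse gene names (23156 IDs matched), and promoter sequences from RefSeq on GRCm38.p6.

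Wells with at least 1000 counts and 500 genes were kept and joined to the 1504 sort records by well barcode (13 records had none, and 20 carried another well name than the barcode list). The 383 barcodes are shared by all plates, so cells were matched within a plate. Wells without a sort record held at most 185 counts, apart from wells E5 and N15, which had counts on the plates but no matching record and were left out. No doublet caller was run, since each well received 1 sorted cell. Within each plate the cells were cut into 3 parts by CD16/32, and counts were summed per plate and part. In the sort table, 2 further value columns, the heights of forward and side scatter, were not used.

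The gene tests used the quasi-likelihood F-test of edgeR 4.0.16 after filterByExpr and TMM normalisation, in R 4.3.3, with the plate as a block and Benjamini-Hochberg adjustment over all tested genes at 0.05. Both parts of a plate come from the same sort. Their deviations from the arm means had correlations of 0.181 to 0.351 within a plate, over 8808 genes, and of -0.226 to 0.0232 between plates. Since each arm mean was taken over the same 4 plates, these ranges depend on each other and do not test the block. Sort channels and genes below the filter were compared by exact two-sided sign-flip permutation tests of 4 plate differences. DESeq2 1.42.0 served as an alternative, and gave no adjusted p for 3415 genes. Other alternatives were relative log expression size factors, no count filter, no block, plates left out in turn, 4 parts or the median in place of the 3 parts, thinning to 3000 counts per cell (434 high and 439 low cells were deep enough), removal of cells at 20% mitochondrial counts or more or with counts of 3 or more genes of another lineage, and CD16/32 corrected for scatter by linear regression within the plate. Corrections for PIR-A and for all other channels, and the removal of plasma cells and of granule-rich cells, were chosen after the data were seen. Scripts were tested on simulated counts. Tables and figures were made with Python 3.11.15, numpy 2.4.6, pandas 2.3.3 and matplotlib 3.10.9.

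The members, gene lists and tests were chosen with earlier results of these data known. Genes were named by rule: genes of the sorted proteins, the 15 largest rises and the 15 largest falls with the same sign on 4 plates and at least 10 CPM, up to 6 members of each list by adjusted p, and genes whose difference between CD135-high and CD135-low cells passed. Genes named below the count filter, and the grouping of H2A histone rows, were chosen after their values were seen.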

Additional observations from a re-analysis of the deposited data

Results flagged for a closer look

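The values in this paragraph belong to genes and channels for which 1 plate lay far from the other 3, by a rule that picks about 1 in 20 groups by chance. Elane had a log2 difference of 0 on LCE409, where its table has no entry, and of 2.07 to 2.37 on the other plates. LCE410 stood apart for H2-Aa (-0.10, against 0.75 to 0.91 on the others), H2-Eb1 (-0.20, against 1.25 to 1.42), Hlf (-0.14, against 0.18 to 0.20), Kit (0.0078, against 0.22 to 0.24) and Ncf1 (-0.58, against -1.06 to -0.98), and LCE408 for Tk1 (0.072, against 1.05 to 1.15). The difference of CD150 medians between CD16/32-high and CD16/32-low cells was 690 on LCE407 (689.947 unrounded) and 343 to 359 on the other plates.

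In 9 genes the CD16/32 difference itself differed between CD135-high and CD135-low cells (edgeR interaction, CD135-high minus CD135-low, log2 ± SE). It was 1.061 ± 0.15 for Hlf, -1.55 ± 0.22 for Ighm, 0.88 ± 0.13 for Car2, -0.35 ± 0.08 for H2afy and -0.91 ± 0.20 for Dntt, which are described above. The globins Hba-a1 (3.91 ± 0.71) and Hbb-bt (1.74 ± 0.37) rest on few cells, since 1 cell held 52.0% of the Hba-a1 counts and 18.9% of the Hbb-bt counts in the 2 arms. Lmo2, a transcription cofactor of stem cells, differed by 0.56 ± 0.13, and the pseudogene Rps24-ps2, whose reads may come from Rps24, by -0.48 ± 0.09 (edgeR, highest adjusted p of the 9 = 0.028).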

How the results depend on the processing

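The count of 104 genes was 23 under DESeq2, 49 after correction of CD16/32 for scatter, 43 with cells thinned, 55 without granule-rich cells and 9 after correction for all other channels, and 66 to 98 with 1 plate left out. Without a count filter 86 genes passed in CD135-low cells, 56 between high and middle, 43 between middle and low and 25 in the interaction. With 1 plate left out these comparisons gave 34 to 70, 18 to 28, 16 to 47 and 3 to 16 genes, and CD135-high cells 19 to 35.

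Fits with no replicate block called 24 genes over all cells, 6 in CD135-high cells, 12 in CD135-low cells, 1 between high and middle, 1 between middle and low and 0 in the interaction.

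The mean Fcgr3 difference turned to -0.786 CPM with cells thinned. Corrected for scatter, Hist1h2ap and Gm11336 (-0.064 each), H2afx (-0.050), Hmgb2 (-0.020) and Mki67 (-0.12) changed sign. Corrected for all other channels, 15 of the named genes changed sign: Dntt (0.34, adjusted p = 0.02), Ighm (0.49, adjusted p = 0.00037), Ncf1 (0.35), Arpp21 (0.29), Notch1 (0.14), Flt3 (0.12), H2afy (0.11), Tcf4 (0.10), mt-Rnr2 (0.015), Il12a (0.014), Hist1h2aj (-0.10), Hist1h2ap (-0.10), Gm11336 (-0.14), Hmgb2 (-0.041) and Mki67 (-0.019). The cause was not tested. Depth limited the Fc receptor, neutrophil and T cell genes, most of which had too few counts for the test.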
